A study of Mus musculus with 4 samples.

Results

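Lsamp lies on mouse chromosome 16. In 3 of 4 liver tumours measured by array comparative genomic hybridization, the ratio of tumour over reference at a stretch inside it stood off the rest of the gene. In tumours 2 and 3 the tumour signal was low there, and in tumour 4 the reference signal was low. The array carried 67 probes with the gene name Lsamp, of 169093 probes placed on chromosomes. Of these, 12 made up the stretch, at chr16:41701644-41794655 on build mm9, and 55 lay elsewhere in the gene. The stretch was chosen from the ratios themselves, because it was low in tumours 2 and 3 and high in tumour 4. The ratios of its probes and their contrast with the other Lsamp probes are therefore given as a description, without tests.

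The samples were liver tumours of 4 untreated C57BL/6J mice that lacked Trp53 in the liver. Trp53 encodes the tumour suppressor p53. Tumour DNA carried the dye Cy5 and reference DNA carried Cy3, and both competed for the same oligonucleotide probes, so that the ratio of the dyes follows relative copy number. The labels give the reference as spleen, pooled from 3 littermates of the same sex per the series design, while the labelling protocol calls it liver. They give genotype Trp53-/- and male sex for both the tumour and the reference, so the reference carries the labelled genotype too. The driver of the liver-specific deletion and the age of the mice are not given in the sources used here. The reference was a pool and not normal tissue of the tumour's own mouse. The tumours formed 1 group, and array 1 to array 4 below are the hybridizations of tumour 1 to tumour 4. Nothing in the labels gives these numbers an order.

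Lsamp encodes the limbic system-associated membrane protein, a cell adhesion molecule of the IgLON family. IgLON proteins carry immunoglobulin domains outside the cell and are held on the membrane by a glycosylphosphatidylinositol anchor. They are known mainly from neurons, where they act in the growth and contacts of neurites. The human gene LSAMP has been described as deleted or silenced in several cancers, osteosarcoma among them. The gene is very long and mostly intron, with transcripts that begin at widely separated promoters. Whether the stretch described here overlaps an exon was not analysed here.

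Both channels were bright. On array 2, which had the fewest, 99.06% of the spots of the tumour channel and 98.99% of those of the reference channel were well above background. The arrays differed in noise. The SD between neighbouring autosomal probes was 0.12, 0.37, 0.15 and 0.15 (log2) on arrays 1 to 4, and the noise measure that array 2's header records lay outside its accepted range. In 2 channels the sex chromosomes went against the labelled male sex, and each of these channels stood apart from the other 6. Tumour 4's channel read -0.08 on X and -3.11 on Y, relative to the channel's autosomal median. The reference channel of array 1 read -0.07 on X and -3.38 on Y. In the other 6 channels X lay between -0.99 and -0.89 and Y between -1.15 and -0.74. The tumour 1 and tumour 4 ratios correlated at -0.61 over all placed probes and at 0.18 over the autosomal ones. No dye was swapped. Tumours 1 and 2 shared slide 1, and tumours 3 and 4 shared slide 2, so each slide held 1 of the tumours with a low stretch. The labels state the dyes, and the direction of every ratio was kept. The values below are given tumour by tumour, so that tumours 2 and 3 can be read without the other pair.

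The sequences of 8 Lsamp probes are shown, since the finding rests on what these oligonucleotides measured. They are the outermost probes of the stretch, 3 within it chosen for their signal or position, the nearest probe on each side, and the third probe to the right. All are 60 bases long and are printed in lower case without capitals, because the whole probe is the measured site. The files give positions on mm9 but state no strand. The first is the nearest probe to the left of the stretch, at chr16:41688714-41688773.
A_67_P08576578: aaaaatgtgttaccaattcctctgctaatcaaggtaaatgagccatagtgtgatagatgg
The next begins the stretch, at chr16:41701644-41701703.
A_67_P08576613: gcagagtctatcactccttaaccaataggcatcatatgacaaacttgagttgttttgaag
The following probe had the dimmest tumour signal within the stretch on all 4 arrays, at chr16:41738764-41738823.
A_67_P08576707: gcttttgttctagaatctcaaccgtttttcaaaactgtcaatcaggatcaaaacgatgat
The next, at chr16:41755448-41755507, lies near the middle of the stretch.
A_67_P08576752: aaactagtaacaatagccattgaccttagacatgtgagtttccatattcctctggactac
The following probe was the brightest of the stretch in the tumour channel of all 4 arrays, at chr16:41779884-41779943.
A_67_P08576817: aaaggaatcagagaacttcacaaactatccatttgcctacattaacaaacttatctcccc
The stretch ends with the next probe, at chr16:41794596-41794655.
A_67_P08576856: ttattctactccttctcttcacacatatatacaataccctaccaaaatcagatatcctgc
The nearest probe to the right lies at chr16:41803313-41803372.
A_67_P08576872: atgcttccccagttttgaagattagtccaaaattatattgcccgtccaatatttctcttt
The third probe to the right lies at chr16:41814859-41814918.
A_67_P08576901: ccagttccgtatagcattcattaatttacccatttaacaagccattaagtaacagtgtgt

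The 67 probes spanned 563.743 kb, from position 41575091 to position 42138833, with a median spacing of 7174 bp. The RefSeq table of another mouse build gives Lsamp a length of 2197426 bp, so the probes that carry its name sample less than the whole gene. The stretch covered 93.012 kb with 18 Lsamp probes to its left and 37 to its right. The nearest probes outside it left 12870 bp unprobed on the left and 8657 bp on the right, so the altered segment could reach at most 114.539 kb between those flanking probes. No spot of the 268 on the 4 arrays was flagged, and 2 of their 536 channel readings were not well above background. GC content was 35.7% ± 1.81 (SD, n = 12 probes) inside the stretch and 36.7% ± 2.92 (SD, n = 55 probes) in the rest of the gene.

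Along the stretch, tumours 2 and 3 read about as far below the rest of the gene as tumour 4 read above it, and tumour 1 stayed level with it. The mean log2 ratio over the 12 probes, tumour over reference, was -0.03 ± 0.10 in tumour 1, -0.84 ± 0.30 in tumour 2, -0.96 ± 0.20 in tumour 3 and 1.08 ± 0.13 in tumour 4 (SD over 12 probes). At the other 55 Lsamp probes the means were 0.04 ± 0.12, -0.03 ± 0.37, -0.02 ± 0.15 and 0.07 ± 0.17 for tumours 1 to 4 (SD over 55 probes). The stretch minus the rest of the gene was thus -0.07 in tumour 1, -0.80 in tumour 2, -0.94 in tumour 3 and 1.01 in tumour 4. On the linear scale the stretch stood at 0.955, 0.574, 0.521 and 2.01 times the rest of the gene. A single copy against 2 in pure cells gives a log2 ratio of -1, and 2 copies against 1 give 1. The fraction of tumour cells in the samples is not given in the sources used here.

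**Figure D1:**
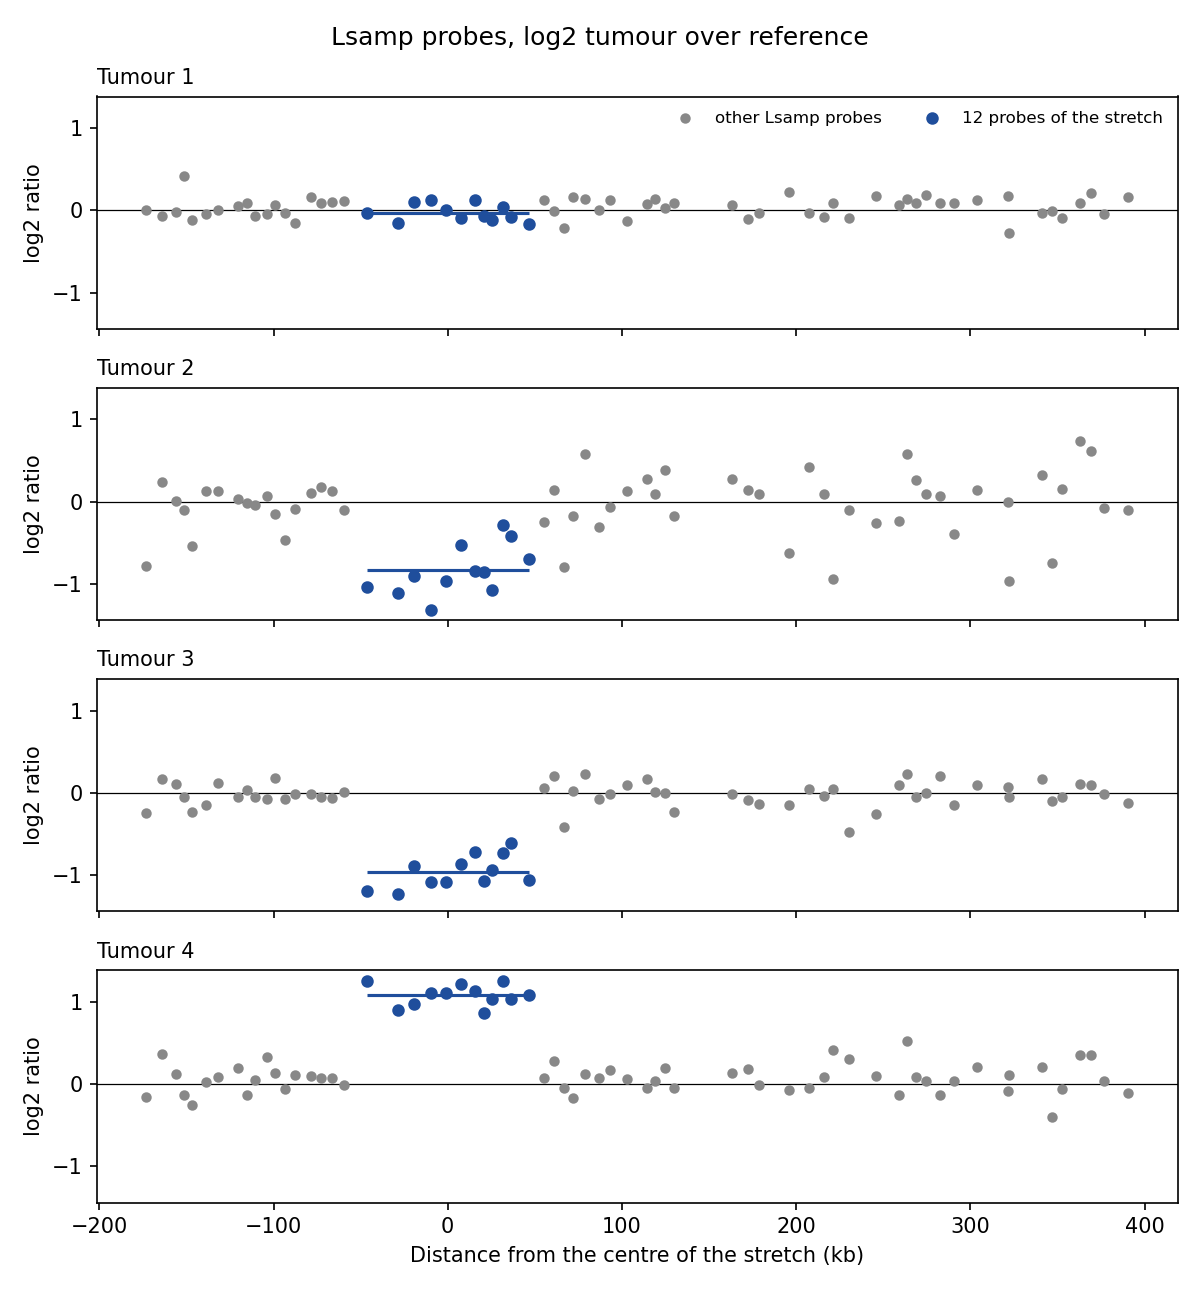
Log2 ratio of tumour over reference (vertical axis) at the 67 Lsamp probes against distance from the centre of the stretch in kb (horizontal axis), 1 panel per tumour. Blue points are the 12 probes of the stretch with their mean as a line, and grey points are the other 55 probes: the blue points lie at 0.86 or higher in tumour 4, at -0.61 or lower in tumour 3, between -1.31 and -0.29 in tumour 2 and around 0 in tumour 1.

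In tumour 3 the 12 ratios ran from -1.23 to -0.61, against -0.48 to 0.23 at the other 55 Lsamp probes, so the ranges did not meet. In tumour 4 they ran from 0.86 to 1.26, against -0.40 to 0.52, and again did not meet. In tumour 2 they ran from -1.31 to -0.29, against -0.96 to 0.74, and 4 of the 12 lay outside the range of the other probes. In tumour 1 none of the 12 did, with ratios from -0.17 to 0.12 against -0.27 to 0.41.

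Followed in order along the gene, the 12 ratios of tumour 4 were 1.26, 0.91, 0.97, 1.11, 1.10, 1.21, 1.13, 0.86, 1.04, 1.25, 1.04 and 1.08, with no slope to the eye from end to end. Those of tumour 3 were -1.19, -1.23, -0.89, -1.08, -1.09, -0.87, -0.72, -1.07, -0.94, -0.73, -0.61 and -1.06. Those of tumour 2 were -1.04, -1.11, -0.91, -1.31, -0.96, -0.53, -0.85, -0.86, -1.07, -0.29, -0.41 and -0.70. The tenth and eleventh probes were the least low in tumour 2 and among the 3 least low in tumour 3, while in tumour 4 they read as high as the others.

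Ratios of -0.5 or lower were found at 10 of the 12 probes in tumour 2 and at 12 of 12 in tumour 3. Over all autosomal probes, 10.5% in tumour 2 and 0.776% in tumour 3 were that low. Ratios of 0.5 or higher were found at 12 of 12 probes in tumour 4, where 0.44% of all autosomal probes were that high. In the rest of the gene 7 of 55 probes in tumour 2 lay at -0.5 or lower and 4 at 0.5 or higher, and in tumour 4 1 probe lay at 0.5 or higher. These counts use the values that chose the stretch.

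Both borders fell between neighbouring probes. On the left, the nearest outside probe had ratios of 0.11, -0.11, 0.01 and -0.01 in tumours 1 to 4, and the first probe of the stretch had -0.03, -1.04, -1.19 and 1.26. On the right, the last probe of the stretch had -0.17, -0.70, -1.06 and 1.08, and the nearest outside probe had 0.13, -0.25, 0.06 and 0.07. Further out on the left, the second probe read 0.10, 0.13, -0.06 and 0.08 and the third 0.09, 0.18, -0.05 and 0.08. On the right, the second probe read -0.01, 0.14, 0.21 and 0.28. The third probe to the right, at position 41814859, read -0.21, -0.79, -0.42 and -0.05. In tumours 1, 2 and 3 that probe was lower than the probe on either side of it, and in tumour 4 it was not raised.

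Each array was also divided into segments of level ratio, a step that used no gene names. The ends of the stretch were taken from the segments of tumours 3 and 4. Their match to the stretch was therefore fixed and is no separate support for its borders. In tumours 3 and 4 a segment began and ended at the same probes, 41701644 to 41794655, with means of -0.96 and 1.08 over 12 probes. In tumour 2 the segment began at the same probe and ended at 41773463, after 9 probes and 71.82 kb, with a mean of -0.96. The 3 probes that the shorter segment left out read -0.29, -0.41 and -0.70 in tumour 2, and -0.73, -0.61 and -1.06 in tumour 3. Tumour 2's segment was not called with a penalty factor of 6 in place of 3, nor after another background correction (normexp), and the segments of tumours 3 and 4 were called in each case. Chromosome 16 of tumour 1 was 1 segment from end to end. These 3 were the only called segments on chromosome 16, while called segments held 4.36%, 4.66%, 0.115% and 7.72% of all autosomal probes in tumours 1 to 4.

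The 2 channels were then read apart, since a ratio can be low because the tumour signal is low or high because the reference signal is low. Each channel was centred on its own autosomal median, and the stretch was set against the other Lsamp probes. In the tumour channel the stretch minus the rest was 0.03 on array 1, -0.62 on array 2, -0.86 on array 3 and 0.18 on array 4. In the reference channel it was 0.09, 0.19, 0.08 and -0.83. The low ratios of tumours 2 and 3 thus went with a low tumour signal, and the high ratio of tumour 4 went with a low reference signal.

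**Figure D2:**
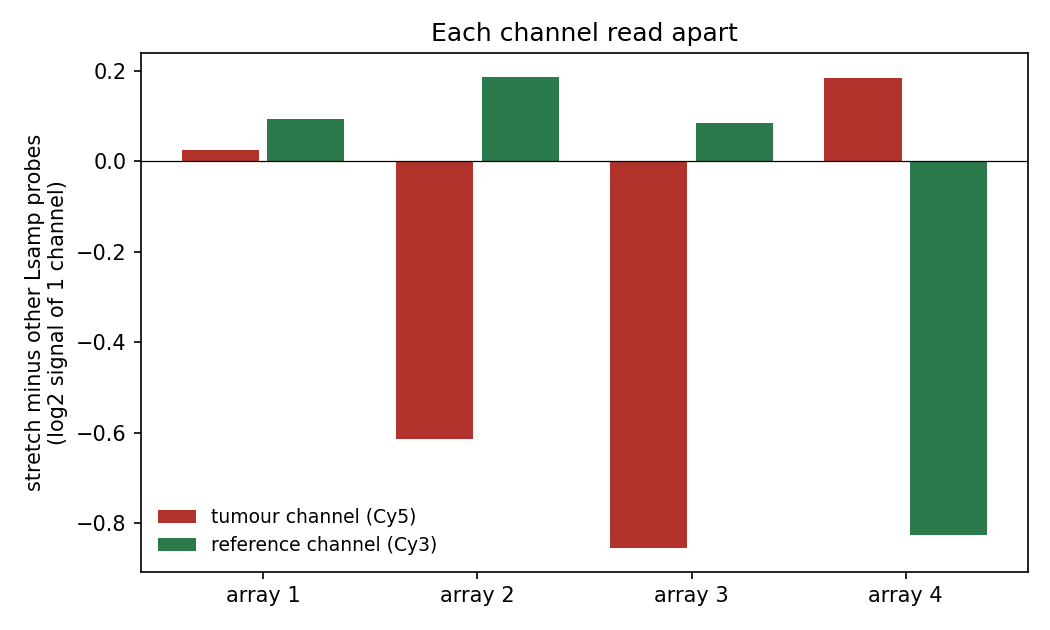
Mean log2 signal of the 12 probes of the stretch minus that of the other 55 Lsamp probes (vertical axis), for each of 4 arrays (horizontal axis), with the tumour channel in red left of the reference channel in green. The tumour bars reach -0.62 and -0.86 on arrays 2 and 3, and the reference bar reaches -0.83 on array 4, while the other 5 bars lie between 0.03 and 0.19.

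Probe by probe, the tumour channels of arrays 2 and 3 both lay below those of arrays 1 and 4 at 12 of 12 probes of the stretch. They did so at 7 of the 55 other Lsamp probes and at 12.1% of all autosomal probes. The gap between the higher of the low pair and the lower of the high pair ran from 0.16 to 0.89 (log2) within the stretch. The reference channel of array 4 was the lowest of the 4 reference channels at 12 of 12 probes, at 16 of 55 other Lsamp probes and at 24.6% of all autosomal probes. Its gap below the next array ran from 0.56 to 1.25. Of the tumour channels, array 3 was the lowest at 8 of the 12 probes and array 2 at 4. The ratios that chose the stretch are made of these channels, so the counts are a description and no test.

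The sequences printed above show the pattern at single probes. At the first probe of the stretch the tumour channel read -0.13, -0.93, -0.99 and -0.08 on arrays 1 to 4, and the reference channel read -0.11, 0.09, 0.19 and -1.34. At the dimmest probe the tumour channel read -0.99, -2.17, -2.21 and -1.28, and the reference channel -1.12, -0.87, -1.15 and -2.39. At the brightest probe the tumour channel read 1.12, 0.96, 0.23 and 1.61, and the reference channel 1.07, 1.23, 0.95 and 0.35. At each of these probes arrays 2 and 3 had the lowest tumour signals and array 4 the lowest reference signal. At the brightest, however, array 2 lay only 0.16 below array 1 in the tumour channel, and its ratio was -0.29.

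**Figure D3:**
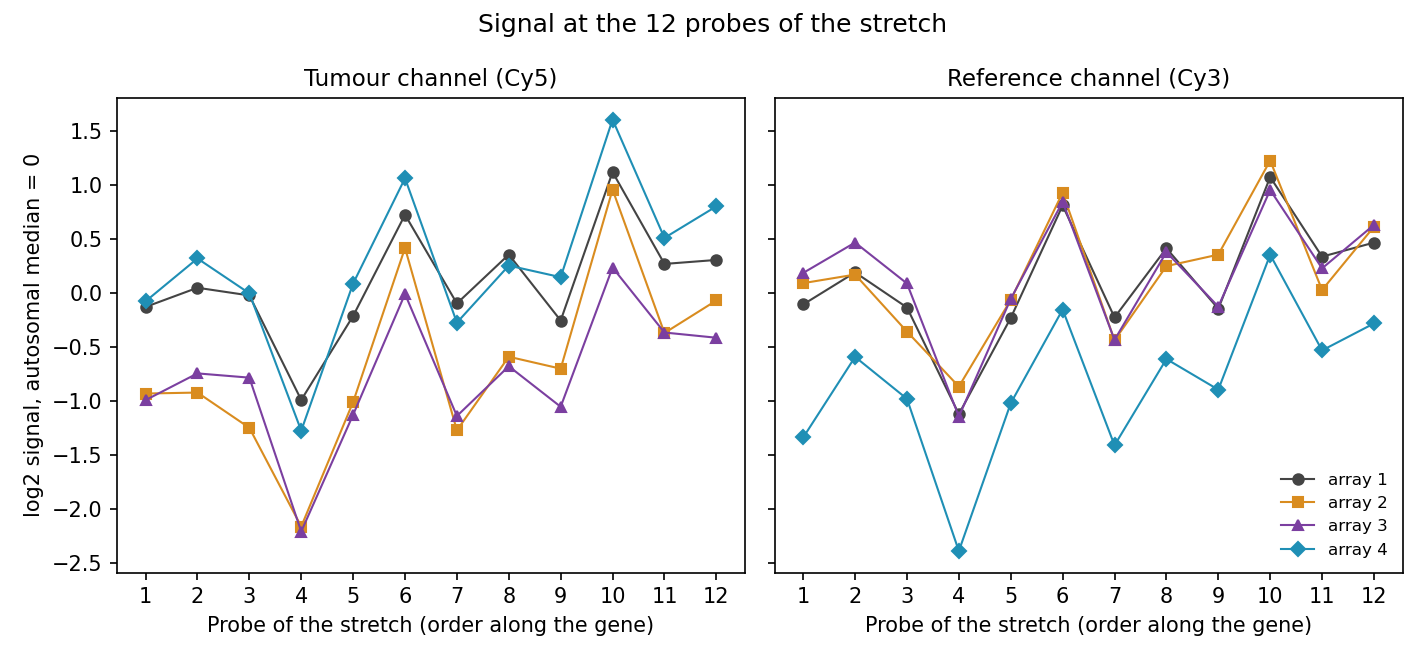
Log2 signal of each channel, with the channel's autosomal median at 0 (vertical axis), at the 12 probes of the stretch in their order along the gene (horizontal axis), 1 line per array, with the tumour channel on the left and the reference channel on the right. Arrays 2 and 3 lie below arrays 1 and 4 at every probe of the tumour channel, and array 4 lies below the other 3 at every probe of the reference channel.

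Set against the mean of the other 3 arrays at the same probes, the tumour channel of the stretch stood at 0.48, -0.52, -0.67 and 0.71 for arrays 1 to 4. The reference channel stood at 0.27, 0.34, 0.35 and -0.97. The positive values come partly from the comparison, which includes the low tumour channels of arrays 2 and 3 or the low reference channel of array 4. Against the rest of Lsamp, the tumour channels of arrays 1 and 4 stood at 0.03 and 0.18. For array 4 the reference value was -0.97 ± 0.21 (SD over 12 probes), from -1.40 to -0.73. Windows of 12 autosomal probes in which the reference channel of array 4 lay at least 0.5 below the mean of the other 3 made up 0.0208% of all autosomal windows, or 33 of 158867. The stretch is among them and was chosen for its ratio on this array, so this share is no test. The reference channel of array 4 was not one of the 2 that went against the labelled sex, and the tumour channel of the same array was.

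Within the stretch, the ratios of tumours 2 and 3 had a Pearson's r of 0.72 over the 12 probes, against 0.50 over all autosomal probes. Tumour 4 had r = 0.31 with tumour 2 and 0.23 with tumour 3, against 0.47 and 0.36 over all autosomal probes. Tumour 1, whose stretch was level, had r of -0.16, 0.29 and 0.25 with tumours 2, 3 and 4 in the stretch, and 0.14, 0.21 and 0.18 over all autosomal probes. In tumour 2 the ratio also followed the mean intensity of the probe (r = 0.80, n = 12 probes), so that its dim probes read lowest. The same correlation was -0.42 in tumour 1, 0.27 in tumour 3 and 0.12 in tumour 4. Both channels enter the ratio and the mean intensity alike, so part of such an r can come from the arithmetic. With the array's trend of ratio on intensity removed, the stretch minus the rest was -0.67 in tumour 2. All these correlations are descriptions over 12 probes of the same DNA, and the arrays share their probes, base composition and background.

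The X chromosome gives a scale for the stretch on array 4, where the 2 channels differ in their X level. Its ratio on X, tumour over reference, was 0.84 ± 0.08 (SD over 9400 windows of 12 probes), and 5% to 95% of the windows lay between 0.71 and 0.96. The stretch, at 1.08, was reached by 0.213% of X windows. It was chosen for its high ratio in this tumour, so that share is no test. On array 1 the X ratio was -0.82, and on arrays 2 and 3 it was -0.05 and -0.01. Windows of 12 autosomal probes had 5% and 95% points of -0.24 and 0.25 on array 2, -0.13 and 0.09 on array 3 and -0.19 and 0.14 on array 4. The stretch of tumours 2, 3 and 4 lay outside those ranges, as its choice fixed.

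**Figure D4:**
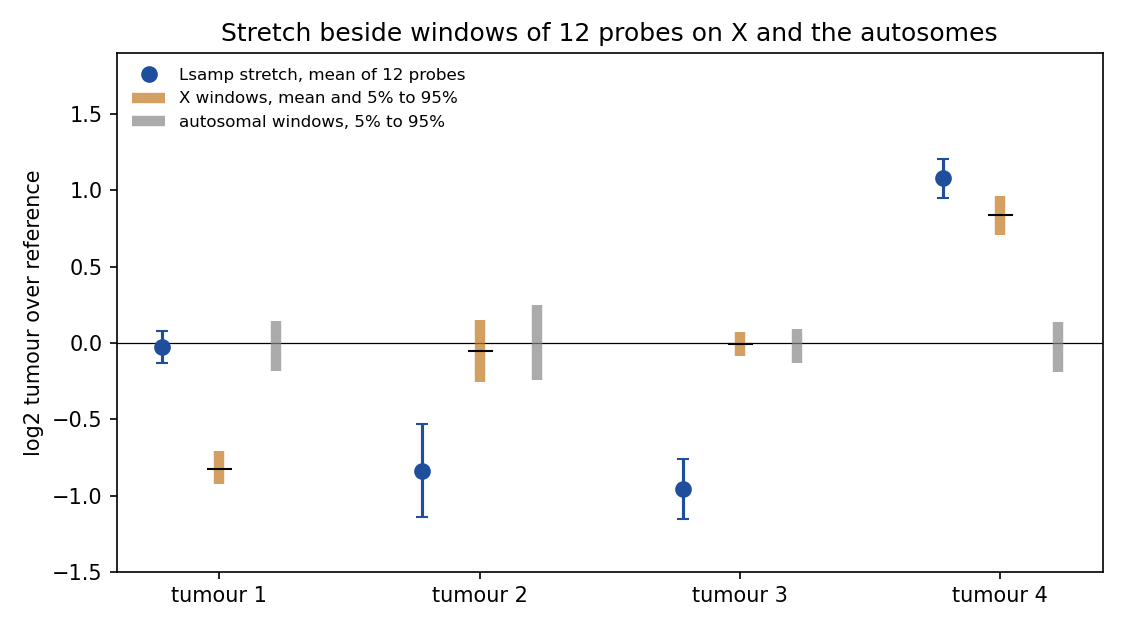
Log2 ratio of tumour over reference (vertical axis) for each tumour (horizontal axis): the mean of the 12 probes of the stretch with its SD (blue), the mean and the 5% to 95% range of X windows of 12 probes (orange) and the 5% to 95% range of autosomal windows of 12 probes (grey). Tumour 4's stretch, at 1.08, lies above its X range of 0.71 to 0.96, and the stretches of tumours 2 and 3, at -0.84 and -0.96, lie below both ranges.

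The rest of Lsamp did not share the shift. The stretch was chosen against it, so its level is given as a description. The 18 probes left of the stretch averaged 0.03, -0.07, -0.02 and 0.05 in tumours 1 to 4, and the 37 probes to its right averaged 0.05, -0.02, -0.01 and 0.08. The average over all 67 probes was 0.03, -0.18, -0.19 and 0.25. The 121 probes within 1 Mb on either side of the probes named Lsamp averaged -0.013, -0.006, -0.007 and 0.057, with a mean over tumours of 0.008 ± 0.033 (SD, n = 4, exact two-sided sign-flip permutation test, p = 1). Without tumour 4 that mean was -0.0086, and without tumours 1 and 4 it was -0.0063. The gene is longer than the span of its named probes, so some of these 121 probes may lie inside it. The 6566 probes of chromosome 16 not named Lsamp averaged -0.004, -0.018, -0.011 and 0.002. Their mean over tumours, -0.008 ± 0.009 (SD, n = 4), gave p = 0.25 in the same exact permutation test. With 4 tumours the smallest p this test can give is 0.13, so it could not have passed the 0.05 threshold. A mean over tumours also cannot show shifts of opposite sign, which cancel in it.

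Windows of 12 probes with a mean of -0.5 or lower in tumours 2 and 3 and of 0.5 or higher in tumour 4 made up 0.00692% of autosomal windows, which was 11 of 158867, and all 11 overlapped the stretch. Below that size the same signs were found elsewhere. The window nearest to the stretch in its 4 values lay on chromosome 8, at chr8:53154277-53553208, and read 0.01, -0.36, -0.33 and 0.47 in tumours 1 to 4. It held 1 probe that alone read -0.07, 0.11, -3.56 and 5.54. The next lay on chromosome 7, at chr7:18289668-18488314, and read -0.45, -0.14, -0.41 and 0.52. That window also held 1 probe that alone read -3.84, -0.08, -4.80 and 5.38. Taken singly, 0.0308% of windows had a mean of -0.5 or lower in tumour 2 and 0.00755% in tumour 3, and 0.0655% had 0.5 or higher in tumour 4. Among 439 autosomal genes with at least 30 probes, the 12 neighbouring probes that departed most from the rest of their gene were compared in size. Lsamp ranked first in tumours 2, 3 and 4, at -0.80, -0.94 and 1.01, and 276th in tumour 1, at 0.07. The next genes reached 0.53 in tumour 2 (Ppp1r9a), 0.24 in tumour 3 (Tbc1d5) and 0.27 in tumour 4 (BC010208), given as sizes. These ranks follow from the choice of the stretch and are no test.

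The other IgLON genes and the nearest neighbours of Lsamp were not used in choosing it. Gene means over the 4 tumours were tested against 0 with limma's moderated test, adjusted by Benjamini-Hochberg over 13919 genes. No gene passed an adjusted p of 0.05 in either direction (0% higher and 0% lower), while 6.67% were higher and 9.28% lower at an unadjusted p under 0.05. That count depended on the processing: with normexp 180 genes were higher and 211 lower, and with slide as a random block 169 were higher and 192 lower. None of the IgLON genes or neighbours named here passed under either. Opcml, an IgLON gene known in human cancers as a tumour suppressor, read -0.15, -0.05, -0.14 and -0.13 over 104 probes, a mean of -0.12 ± 0.05 (SD, n = 4 tumours, limma adjusted p = 0.244). It was below 0 in 4 of 4 tumours, and without tumours 1 and 4 its mean was -0.09 (limma adjusted p = 0.691). Ntm, the gene of neurotrimin and named Hnt on the array, read -0.16, 0.01, -0.10 and -0.12 over 83 probes, a mean of -0.09 ± 0.07 (SD, n = 4, limma adjusted p = 0.356). Both lie on chromosome 9, whose other probes read -0.18, -0.00, -0.12 and -0.20. Negr1, the gene of neuronal growth regulator, lies on chromosome 3 and read 0.02, -0.01, 0.01 and 0.05 over 73 probes (limma adjusted p = 0.838). Iglon5 had no probe under its names.

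**Figure D5:**
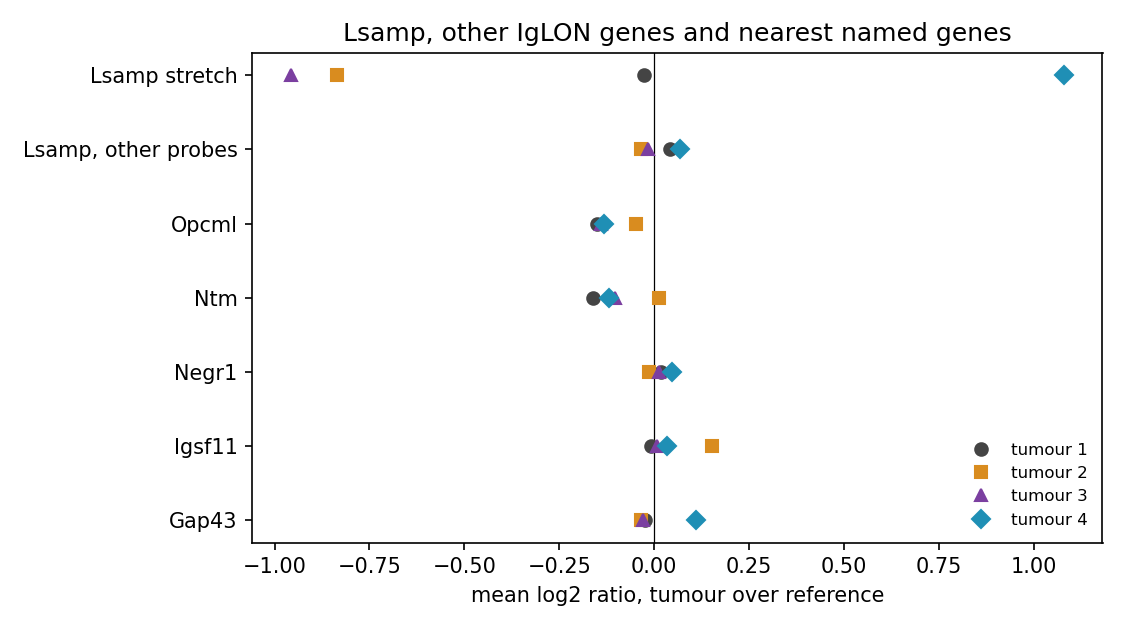
Mean log2 ratio of tumour over reference (horizontal axis) for the stretch, the other Lsamp probes, 3 further IgLON genes and the nearest genes of known name on each side (rows), 1 marker per tumour. The stretch runs from -0.96 to 1.08, and the other rows lie between -0.16 and 0.15.

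On the left of Lsamp, Igsf11, the gene of an immunoglobulin superfamily adhesion molecule, read -0.01, 0.15, 0.01 and 0.03 over 14 probes (limma adjusted p = 0.604). The other left neighbours, AK077164 and Upk1b, the gene of a uroplakin of the bladder lining, had limma adjusted p of 0.350 and 0.923. On the right, Gap43, the gene of a protein of growing nerve endings, read -0.02, -0.03, -0.03 and 0.11 over 9 probes (limma adjusted p = 0.964). The other right neighbours, AK016521 and AK132682, had limma adjusted p of 0.877 and 0.760. AK164171, whose 103 probes ran from position 39990398 to 42153875, on both sides of the probes named Lsamp, read -0.02, -0.06, -0.05 and 0.03 (limma adjusted p = 0.755). Some of its probes may lie inside Lsamp, which is longer than the span of its named probes. None of these genes passed the threshold, and p-values over 4 tumours measure only the spread between these tumours. The test asks for a mean shift, and shifts of opposite sign cancel in it. The mean over 4 tumours of all 67 Lsamp probes was itself -0.02. These p-values therefore cannot show whether a gene shares the pattern of the stretch, for which the values of each tumour are given.

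Genes whose 4 values were most like those of the stretch were found by the root mean square of the 4 differences, over 13386 autosomal genes whose median was 0.845. The nearest was Myoz3, the gene of a myozenin of the muscle sarcomere, at 0.450 and with values of -0.34, -0.22, -1.52 and 1.15. It had 2 probes, of which 1 read -0.72, -0.96, -3.11 and 2.30 and the other 0.03, 0.53, 0.07 and 0.01. The tumour channel of Myoz3, set against its 40 flanking probes, read -0.66, -0.76, -1.95 and -0.67, and the reference channel -0.28, -0.39, -0.39 and -1.82. The next were BC064462 at 0.559, Z95478 at 0.562, Nudt9 at 0.569, the gene of an ADP-ribose pyrophosphatase, and AK132134 at 0.577, each with 2 probes. In BC064462, Nudt9 and AK132134 only 1 of the 2 was high in tumour 4, at 0.76, 0.86 and 0.59. The other probe of each read -0.21, -0.07 and -0.08 there. In Z95478 the 2 probes read 0.23 and 0.26 in tumour 4.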

How the data were processed

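Genomic DNA of 4 tumours was hybridized with a reference on Agilent arrays. Feature Extraction (version 12.0.1.1 in the headers, 12.0.0 in the submitters' processing notes) had made both channels' deposited processed intensities by subtracting background, detrending and normalizing the dyes, with mm9 positions, per the file headers. The deposited log10 ratio served only to check the direction and lay within 0.001 of the processed signals' log10 ratio at 99.7% or more of the spots. From the deposited intensities, log2 of tumour over reference was computed, flagged spots were left out, and arrays were centred on the autosomal median without loess.

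Segments came from penalised least squares (penalty factor 3, at least 5 probes, mean at or beyond 0.2 in size), and gene means over at least 2 probes were tested with limma 3.58.1 in R 4.3.3. Other steps used Python 3.11.15. The steps were tested on simulated data. Members and lists were chosen with earlier results of these data known. Named genes were Lsamp, the other IgLON genes, the 3 nearest genes on each side and the 5 most like the stretch. Replicate tumours come from separate mice, per the labels.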

Additional observations from a re-analysis of the deposited data

Results flagged for a closer look

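In 6 of 26 groups of 4 values, tumour 4 stood apart from the other 3 tumours by Dixon's test. Chance flags about 1 independent group in 20, but these groups were not independent and several were chosen for tumour 4, so their number is no result. The stretch had been chosen for its high ratio in tumour 4, and the reference channel of array 4, stretch minus the rest of Lsamp, stood at -0.83. The log2 ratio of tumour 4 was 0.11 for Gap43, 0.057 over the flanks within 1 Mb and 0.045 over the left flank alone. The flanks include both the left flank and Gap43. It was 0.28 for BC064462 and 0.40 for Nudt9, which had been picked for resembling the stretch. In tumour 4 only 1 of the 2 probes of each of these genes was above 0. The tumour channel of array 4 went against the labelled sex, and its part in these values was not tested.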

How the results depend on the processing

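The difference between the stretch and the rest of Lsamp kept its direction in tumours 2, 3 and 4 under the 7 alternatives, from -0.91 to -0.67, from -1.20 to -0.91 and from 0.99 to 1.04. Over the 5 alternatives for the channels, the tumour channel ranged from -0.92 to -0.58 on array 2, from -1.03 to -0.82 on array 3 and from 0.04 to 0.27 on array 4, and on array 1, from -0.07 to 0.03, it changed sign. The reference channel ranged from 0.02 to 0.11 on array 1, from 0.05 to 0.22 on array 2, from 0.01 to 0.17 on array 3 and from -0.89 to -0.72 on array 4. Keeping flagged spots was 1 alternative in both sets and could change none of these values, since no Lsamp spot was flagged. Tumour 2's segment of 9 probes was not called with a penalty factor of 6 (0 probes) or with normexp (0 probes). The other Lsamp probes of tumour 2 had a median of 0.029, against a mean of -0.03. The flank mean, 0.0077, ranged from -0.0086 to 0.0147 with 1 tumour left out and was -0.0063 without tumours 1 and 4, an alternative added after seeing the data. With normexp, 180 genes were called higher and 211 lower. With slide as a random block, at an estimated within-slide correlation of -0.31, the counts were 169 and 192, against 0 and 0. Without tumours 1 and 4, 1 gene was called higher. The cause of these changes was not tested. No paired analysis was possible because the tumours form 1 group whose numbers follow accession order. The number of arrays, the noise of tumour 2's array and the probe spacing limit these values.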

Other observations

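After the values were seen, the 159009 single autosomal probes outside Lsamp were counted by size. In tumour 3, 6 probes had a log2 ratio of -2 or lower, and in tumour 4, 10 probes had 2 or higher. The lists shared 5 probes, which was 83.3% of the first and 50% of the second. These 5 included 1 probe each of BC030357 on chromosome 7 and Myoz3 on chromosome 18, and 1 probe with no gene name on each of chromosomes 2, 7 and 8. The probe of BC030357 read -3.47, -0.28, -3.39 and 4.47 in tumours 1 to 4. The probe on chromosome 2 read -0.37, -0.44, -4.51 and 4.25, and that on chromosome 8 read -0.07, 0.11, -3.56 and 5.54. At the 5 probes the tumour channel of array 3 minus the mean of the other tumour channels ran from -4.75 to -2.35. The reference channel of array 4 minus the mean of the other reference channels ran from -5.29 to -2.79. The 5 probes were picked for their ratios in tumours 3 and 4, which favours such channel values. Tumour 1 had 26 probes at -2 or lower, of which 6 were at 2 or higher in tumour 4, which was 23.1% of the first list and 60% of the second. Tumour 2 had 34 probes at -2 or lower, and 0 of them were at 2 or higher in tumour 4.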
